A study of Mus musculus with 48 samples.

Results

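The transcripts described here are those of Ch25h, a cholesterol hydroxylase, and of 8 genes of sterol homeostasis, Insig1, Srebf1, Srebf2, Sqle, Idi1, Cyp51, Abca1 and Apoe, measured on Illumina MouseWG-6 v2 arrays. Every probe that the platform annotation names for these genes was taken, which gave 16 of 46174 probes and 9 of 21907 distinct symbols. Primary striatal cultures from C57Bl/6J mice were exposed for 4 h to dexamethasone at 100 nM, to aldosterone, progesterone, dihydrotestosterone or estradiol at 200 nM each, or to vehicle, a trace of ethanol in culture medium. Each steroid was applied to astrocytes and to neurons, which with the vehicle cultures made 12 groups of 4 arrays. The astrocytes were enriched from early postnatal brain with GLAST antibody beads and grown in serum, the neurons were grown from striatum of late embryos, and all cultures spent their last day in medium without supplements.

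Arrays vehicle neurons 3 and dexamethasone neurons 3 were left out, so 46 arrays entered the comparisons. In the first, 8 genes known to rise with glucocorticoids averaged 11.24 on the log2 scale, against 10.52 to 10.55 in the other vehicle neurons. In the second they averaged 10.74, against 11.13 to 11.28 in the other dexamethasone neurons, so both arrays went against their labels. Values are log2 intensities between 6.02 and 16.65, and 61.1% of all probes averaged under 7.5, a level called near background here. All 8 astrocyte markers were higher, and 6 of 8 neuronal markers lower, in vehicle astrocytes than in vehicle neurons. Snap25 and Gad2, markers of neurons in general and of GABAergic neurons, stayed near background in both cultures. The 12 microglial markers were all higher in the vehicle astrocyte cultures (range of their mean over arrays 12.14 to 12.21) than in vehicle neurons (8.83 to 9.01), so the astrocyte cultures also held microglial transcripts. Of 7 measured markers of the oligodendrocyte lineage 5 were lower in vehicle astrocytes (range of the list mean 8.73 to 9.20) than in vehicle neurons (10.71 to 10.81), so the neuron cultures also held transcripts of that lineage. They held astrocyte transcripts as well. Over the neuron arrays S100b (7.02) was near background, and the other astrocyte markers averaged from 9.41 (Slc1a2) to 15.57 (Slc1a3). Over the astrocyte arrays the neuronal markers Map2 (12.65), Stmn2 (11.58) and Syt1 (11.12) were above background, and the others were near it. Of the oligodendrocyte lineage Olig1 (14.52), Pdgfra (9.53), Mbp (8.63), Sox10 (8.24) and Mag (7.94) were above it there, and Mog and Olig2 were near it. In such whole-culture measurements, fewer cells of a type and less RNA per cell cannot be told apart.

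Cells keep cholesterol within narrow limits by sensing it in the endoplasmic reticulum. When sterols are scarce, the SREBP transcription factors, encoded by Srebf1 and Srebf2, travel to the Golgi, are cut and switch on the genes of synthesis and uptake, and INSIG proteins hold them back when sterols are plentiful. Oxysterols, among them the side-chain hydroxylated cholesterol made by the Ch25h enzyme, bind INSIG and also activate the liver X receptors, which raise genes of cholesterol export such as Abca1 and Apoe. In the brain, astrocytes export cholesterol on Apoe particles that neurons take up. In myeloid cells Ch25h is a well-known interferon and inflammatory response gene, and its product feeds the synthesis of the ligand of the chemotactic receptor Gpr183.

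The 250 bases before the RefSeq start (GRCm38.p6) are shown for Ch25h, the member that changed with a steroid, for Insig1, Idi1 and Cyp51, whose transcripts were lower in astrocytes than in neurons, and for Srebf2, which encodes the factor that drives such genes. Capitals mark the matches on either strand to TCACNCCA (a sterol regulatory element), CCAAT (the box bound by NF-Y) and TATAAA (the letters of the TATA box, wherever they lie).
Ch25h, chr19:34475149-34475398, minus strand: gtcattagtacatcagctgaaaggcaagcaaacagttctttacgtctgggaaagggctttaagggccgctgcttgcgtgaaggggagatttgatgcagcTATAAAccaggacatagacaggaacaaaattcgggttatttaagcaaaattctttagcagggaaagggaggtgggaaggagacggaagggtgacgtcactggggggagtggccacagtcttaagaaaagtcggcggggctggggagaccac
Insig1, chr5:28071162-28071411, plus strand: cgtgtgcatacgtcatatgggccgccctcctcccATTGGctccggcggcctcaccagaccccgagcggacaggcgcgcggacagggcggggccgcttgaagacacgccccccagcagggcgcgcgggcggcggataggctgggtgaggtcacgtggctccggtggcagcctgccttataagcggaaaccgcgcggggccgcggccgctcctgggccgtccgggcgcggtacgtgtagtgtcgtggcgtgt
Idi1, chr13:8885356-8885605, plus strand: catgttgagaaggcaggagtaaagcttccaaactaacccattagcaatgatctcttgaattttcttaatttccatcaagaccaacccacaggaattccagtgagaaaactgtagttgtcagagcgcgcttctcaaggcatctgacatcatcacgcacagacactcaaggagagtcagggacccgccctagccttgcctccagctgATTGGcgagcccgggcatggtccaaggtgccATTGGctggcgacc
Cyp51, chr5:4104698-4104947, minus strand: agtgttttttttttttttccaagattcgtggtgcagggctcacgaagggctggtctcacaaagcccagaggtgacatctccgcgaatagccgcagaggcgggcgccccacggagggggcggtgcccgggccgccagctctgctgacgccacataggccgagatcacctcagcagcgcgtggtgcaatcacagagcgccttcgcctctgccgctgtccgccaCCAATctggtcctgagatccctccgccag
Srebf2, chr15:82147019-82147268, plus strand: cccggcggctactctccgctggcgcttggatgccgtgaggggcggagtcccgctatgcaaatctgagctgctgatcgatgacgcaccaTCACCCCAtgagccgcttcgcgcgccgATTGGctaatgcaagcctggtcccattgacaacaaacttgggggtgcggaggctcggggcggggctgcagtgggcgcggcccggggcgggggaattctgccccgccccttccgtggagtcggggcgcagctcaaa

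The Insig1, Idi1, Cyp51 and Srebf2 windows each held CCAAT, which 33.8% of all 32851 windows hold. The Srebf2 window also held the sterol regulatory element, found in 3.67% of windows. The Ch25h window held neither. Its marked motif was TATAAA, at -151 from the start and present in 12.4% of windows. AGAACA, an arm of the glucocorticoid response element found in 16.1% of windows, had no match in the Ch25h window. The same held for the AP-1 site TGACTCA (4.46% of windows) and the NF-kappaB motif (7.25%). Of all 12 member windows 6 held CCAAT, and 2 held the sterol regulatory element, 1 of Srebf2 and 1 of Apoe. AGAACA was in 2, 1 of Abca1 and 1 of Apoe. Only the given letters were searched for, so variants of the elements are not marked. Such matches describe the letters of these windows. Of the 9 genes, 8 had a window in the RefSeq table, and Sqle had none.

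Ch25h fell with dexamethasone in astrocytes. Its log2 intensity was 10.34, 10.84, 10.23 and 10.47 in the dexamethasone astrocytes, against 12.24, 12.36, 12.17 and 12.45 in the vehicle astrocytes. The groups did not overlap, and the highest dexamethasone array lay more than 1 log2 unit below the lowest vehicle array. The log2 fold change was -1.84 ± 0.12 (standard error, n = 4 each, 95% interval -2.08 to -1.59), a 3.57-fold lower intensity, with a limma adjusted p of 1.41e-16. Ch25h was the 1 of 16 member probes called lower at an FDR of 0.01 and none was called higher, beside 1.60% of all probes called lower and 1.95% called higher. Leaving out any 1 array of the compared groups gave log2 fold changes between -1.96 and -1.75.

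**Figure D1:**
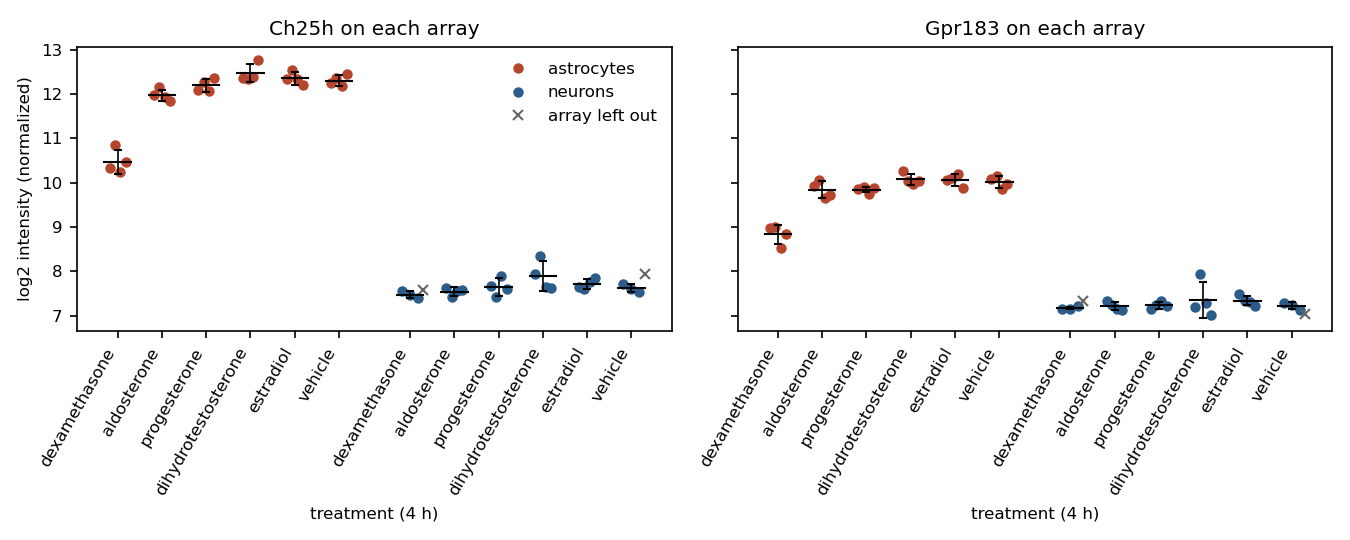
Log2 intensity of Ch25h and of Gpr183 on each array (points), by treatment and cell type, with group means (lines) and SD (bars), and the arrays left out as crosses. In astrocytes Ch25h sits between 10.23 and 10.84 with dexamethasone and between 12.17 and 12.45 with vehicle, and in neurons every array lies between 7.39 and 8.34.

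With the remaining steroids the Ch25h level in astrocytes lay near that of vehicle. Aldosterone astrocytes had 11.97, 12.15, 11.93 and 11.85, against 12.24, 12.36, 12.17 and 12.45 in vehicle astrocytes. Each aldosterone array was thus below each vehicle array, but the difference of -0.33 ± 0.12 (95% interval -0.57 to -0.09) did not pass the test (adjusted p = 0.267). Dihydrotestosterone astrocytes had 12.37, 12.35, 12.39 and 12.77, estradiol astrocytes 12.34, 12.55, 12.34 and 12.20, and progesterone astrocytes 12.08, 12.28, 12.07 and 12.37, all overlapping with vehicle. In order of the group mean, dihydrotestosterone (12.47 ± 0.20), estradiol (12.36 ± 0.14), vehicle (12.30 ± 0.12), progesterone (12.20 ± 0.15) and aldosterone (11.97 ± 0.13, SD, n = 4 each) formed a close sequence. No neighbouring groups in it differed at the threshold (adjusted p from 0.9 to 0.998). Dexamethasone (10.47 ± 0.27) stood last, at 100 nM rather than 200 nM, so it was compared with vehicle alone.

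The mean signal of Ch25h in neurons lay close to the background level of 7.5 in every group. Dexamethasone neurons had 7.56, 7.47 and 7.39, against 7.72, 7.60 and 7.54 in vehicle neurons, a difference of -0.15 ± 0.14 (95% interval -0.43 to 0.14, adjusted p = 0.999). The other neuronal groups averaged between 7.54 (aldosterone) and 7.88 (dihydrotestosterone). The highest neuronal value, 8.34, belonged to dihydrotestosterone neurons 2. On that array the 12 microglial markers averaged 9.61, against 8.71 to 8.83 on the other dihydrotestosterone neuron arrays, and the part of this in the Ch25h value was not tested. The dexamethasone effect on Ch25h in astrocytes differed from that in neurons by -1.69 ± 0.19 (95% interval -2.06 to -1.31, adjusted p = 5.3e-09). It was the 1 member probe called in this difference of differences, in which 0.323% of all probes were called lower and 0.682% higher. The same difference for aldosterone was called for 0 of 16 member probes (0 at an unadjusted p under 0.05), beside 0.119% of all probes at the threshold and 5.71% at the unadjusted one, and for Ch25h it was -0.25 ± 0.18. Because Ch25h was so close to background in neurons, a fall there could not be measured in full. In the moderated F test of the steroids over both cell types Ch25h was again the 1 member probe called (F = 44.6, adjusted p = 1.15e-13, beside 1.78% of all probes).

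In the main fit, which has no block for the replicate number, the sterol-sensing members did not pass the test with dexamethasone. The brightest of 4 probes of Insig1, which encodes the protein that retains SREBP in the endoplasmic reticulum, read 9.88, 9.91, 9.77 and 10.24 in dexamethasone astrocytes, against 9.11, 9.81, 9.57 and 9.72 in vehicle astrocytes. One dexamethasone value lay below the highest vehicle value. The difference was 0.40 ± 0.16 with an adjusted p of 0.173. With the replicate number as a block it was 0.40 ± 0.11 with an adjusted p of 0.00943, past the threshold. The second Insig1 probe read 8.41, 8.09, 8.04 and 8.10 with dexamethasone, against 8.03, 7.98, 7.76 and 7.76 with vehicle. These values did not overlap (0.28 ± 0.13, adjusted p = 0.298). The third probe differed by 0.11 ± 0.10, and the fourth, near background in both cell types, by -0.02 ± 0.09. Srebf1, the SREBP gene tied to fatty acid synthesis, had 10.49, 10.62, 10.68 and 10.41 in dexamethasone astrocytes, against 10.89, 10.90, 10.69 and 10.66 in vehicle astrocytes (-0.23 ± 0.13, adjusted p = 0.416). Both probes of Srebf2, the SREBP gene tied to cholesterol synthesis, differed by no more than 0.01 in size (adjusted p of 0.981 and 0.982).

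The member enzymes of cholesterol synthesis (Sqle, Idi1 and Cyp51) and the export genes Apoe and Abca1 did not pass the test with dexamethasone. Sqle encodes squalene epoxidase, an early oxygen-dependent step of the pathway. Its brightest probe averaged 13.47 ± 0.22 in dexamethasone astrocytes, against 13.62 ± 0.24 in vehicle astrocytes (SD, n = 4 each). Idi1 encodes isopentenyl-diphosphate isomerase and averaged 7.09 ± 0.11 with dexamethasone, against 7.26 ± 0.19 with vehicle, both near background. Cyp51 encodes lanosterol demethylase and averaged 9.75 ± 0.11 with dexamethasone, against 9.75 ± 0.03 with vehicle, with a 95% interval of the difference from -0.19 to 0.21. Apoe, the main apolipoprotein of the brain, averaged 16.43 ± 0.03 with dexamethasone, against 16.45 ± 0.05 with vehicle. These Apoe values lie close to the array maxima (16.09 to 16.65), where a rise may not be measurable. Abca1, the exporter that loads cholesterol onto Apoe, averaged 7.26 ± 0.05 with dexamethasone and 7.14 ± 0.30 with vehicle, so its single probe was near background and gives little information. The median over the 16 member probes was -0.02, beside -0.01 over all probes.

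**Figure D2:**
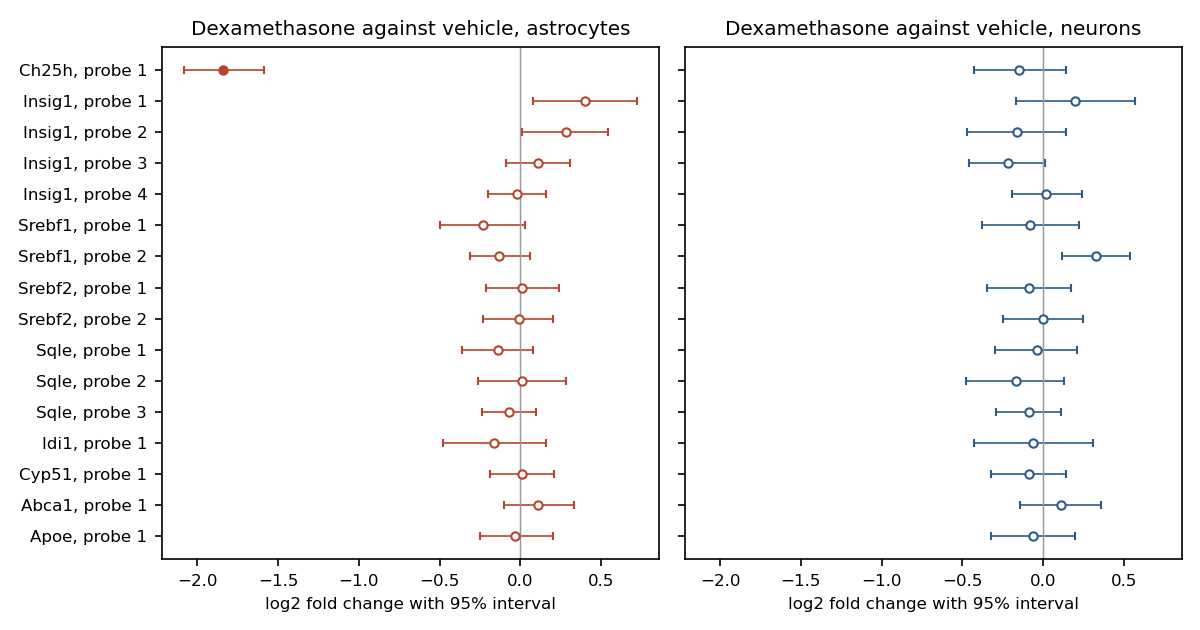
Log2 fold change of dexamethasone against vehicle for the 16 member probes in astrocytes (left) and neurons (right), with 95% intervals, and a filled point where the FDR was under 0.01. Ch25h in astrocytes, at -1.84, is the filled point, and the other 15 probes in astrocytes lie between -0.23 and 0.40.

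No member probe was called by limma with any other steroid in astrocytes. With aldosterone 0 of 16 passed, beside 0.574% of all probes, and 1 had an unadjusted p under 0.05, beside 10.2%. With progesterone 0 of 16 passed, beside 0.0563%, and 0 had an unadjusted p under 0.05, beside 7.44%. Dihydrotestosterone gave 0 of 16, beside 0%, and 2 at an unadjusted p under 0.05, beside 7.31%. Estradiol gave 0 of 16, beside 0%, and 0 at an unadjusted p under 0.05, beside 6.36%. The methods' t-test likewise called none. The pair with an unadjusted p under 0.05 for dihydrotestosterone were enzymes of the synthesis pathway. Cyp51 read 10.04, 10.27, 9.78 and 10.06 in dihydrotestosterone astrocytes, against 9.77, 9.77, 9.75 and 9.70 in vehicle astrocytes. Every dihydrotestosterone value was above every vehicle value, one of them by a narrow margin (0.29 ± 0.10, adjusted p = 0.478). The second Sqle probe read 10.98, 11.08, 10.92 and 11.04 with dihydrotestosterone, against 10.37, 10.50, 10.99 and 10.63 with vehicle. Here the third vehicle array lay among the dihydrotestosterone values (0.38 ± 0.13, adjusted p = 0.479), and the brightest Sqle probe differed by 0.05 ± 0.11.

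**Figure D3:**
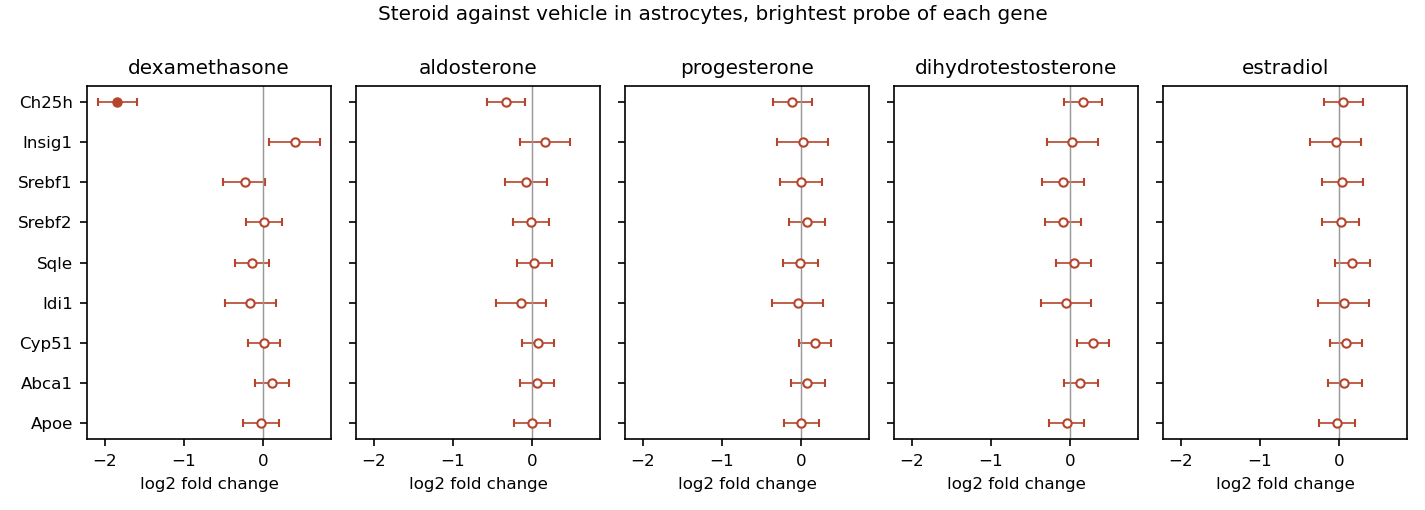
Log2 fold change of each steroid against vehicle in astrocytes for the brightest probe of each of the 9 genes, with 95% intervals, and a filled point where the FDR was under 0.01. The 1 filled point is Ch25h with dexamethasone (-1.84), and Ch25h with aldosterone lies at -0.33.

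In neurons no member probe was called with dexamethasone (0 of 16 in limma, beside 0.117% of all probes), and 1 had an unadjusted p under 0.05, beside 3.01%. The probe with the lowest p was the second one of Srebf1, near background, at 0.33 ± 0.10 (adjusted p = 0.611). Aldosterone in neurons gave 0 of 16, beside 0.00217% of all probes, and 0 at an unadjusted p under 0.05, beside 2.36%. Progesterone, dihydrotestosterone and estradiol gave 0 of 16 each, beside 0% of all probes. At an unadjusted p under 0.05 they gave 0 (beside 2.34%), 3 (beside 2.35%) and 0 (beside 2.66%). The methods' t-test called none in these 5 comparisons. Over all steroids the member differences in neurons ran from -0.29 to 0.33.

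Aldosterone, progesterone, dihydrotestosterone and estradiol share a dose and a time, so they were set against each other in 12 pairs, 6 in each cell type, with p-values adjusted over all probes and pairs. Aldosterone is a pregnane that carries an aldehyde and hydroxyl groups, progesterone is a pregnane without them, dihydrotestosterone lacks the pregnane side chain, and estradiol has an aromatic ring. No member probe was called by limma in any pair (0 of 16 in each, with 0 to 3 at an unadjusted p under 0.05), beside 0.0657% of all probe and pair combinations. The smallest adjusted p was 0.148, for Ch25h in aldosterone astrocytes against dihydrotestosterone astrocytes. That difference was -0.49 ± 0.12 (95% interval -0.74 to -0.25), and the 4 aldosterone values were all below the 4 dihydrotestosterone values. Ch25h was also lower in each aldosterone astrocyte array than in each estradiol one (-0.38 ± 0.12, interval -0.63 to -0.14, adjusted p = 0.86). Dihydrotestosterone and estradiol astrocytes differed in Ch25h by 0.11, with an interval from -0.13 to 0.36. Over all pairs and member probes the intervals of the measured differences reached at most 0.74 in size. For Apoe in astrocytes, close to the array maxima, and for probes near background, such intervals do not bound the difference in transcript.

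Without steroid, the members split by culture type. Set against vehicle neurons, 3 of the 16 probes were higher in vehicle astrocytes and 8 were lower, beside 16.2% of all probes higher and 16.2% lower. Ch25h differed most. It had 12.24, 12.36, 12.17 and 12.45 in vehicle astrocytes, against 7.72, 7.60 and 7.54 in vehicle neurons, a log2 fold change of 4.68 ± 0.13 (95% interval 4.42 to 4.95, adjusted p = 7.31e-33). Apoe had 16.45, 16.38, 16.47 and 16.51 in vehicle astrocytes, against 13.62, 14.10 and 13.94 in vehicle neurons (2.57 ± 0.12, adjusted p = 9.04e-24). Srebf1 had 10.89, 10.90, 10.69 and 10.66 in vehicle astrocytes, against 9.26, 9.08 and 8.84 in vehicle neurons (1.72 ± 0.14, adjusted p = 6.48e-15). In all 3 genes the groups were far apart. The microglial markers were also higher in the astrocyte cultures, 12 of 12 with a median log2 fold change of 3.52, and their part in the Ch25h, Apoe and Srebf1 differences was not tested. Nor was the part of the astrocyte transcripts in the neuron cultures. Of the fibroblast and mural markers, Acta2 (6.73 ± 0.43), Col1a1 (2.20 ± 0.24) and Pdgfrb (0.98 ± 0.15) were higher in the astrocyte cultures. Dcn (-3.16 ± 0.38) was lower, and Col1a2 and Lum did not pass. The part of such cells was not tested either. With columns matched by value rather than by the identifiers in the labels, each chip carried 1 cell type. Chip, age of the source animals and growth medium cannot be told apart from cell type.

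The synthesis enzymes and Insig1 were lower in astrocyte than in neuron cultures, as were most neuronal markers and 5 of 7 oligodendrocyte lineage markers. Pdgfra, a marker of their precursors, differed by -3.42 ± 0.20, Sox10, a lineage transcription factor, by -3.34 ± 0.21, and Mbp, a myelin protein, by -3.47 ± 0.41. Olig2 and Mag were called lower too, Olig1 (-0.28) was not, and Mog was near background in both cultures. The part of these cells in the values that follow was not tested. Cyp51 had 9.77, 9.77, 9.75 and 9.70 in vehicle astrocytes, against 12.17, 12.21 and 12.25 in vehicle neurons, 5.51-fold lower (-2.46 ± 0.11, adjusted p = 2.95e-25). Insig1 was lower in astrocytes with 3 of its 4 probes, with log2 fold changes of -1.59 ± 0.17, -1.40 ± 0.14 and -1.69 ± 0.11. The third of these averaged 7.41 in vehicle astrocytes, near background, so its difference may be understated. Its brightest probe had 9.11, 9.81, 9.57 and 9.72 in vehicle astrocytes, against 10.85, 10.94 and 11.64 in vehicle neurons. The log2 fold change of Sqle was -0.62 ± 0.12 with its brightest probe and -1.41 ± 0.14 with the second, and that of Idi1 was -1.07 ± 0.17. Idi1 had 7.08, 7.18, 7.53 and 7.24 in vehicle astrocytes, around background, against 8.0, 8.14 and 8.84 in vehicle neurons. Each of these probes was called lower, in a comparison that called 32.4% of all probes in either direction. The probes of Srebf2 disagreed: the brighter gave 0.12 ± 0.12 (adjusted p = 0.495) and the dimmer -0.55 ± 0.12 (adjusted p = 8.19e-05). With the methods' t-test 7 rather than 11 member probes were called.

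**Figure D4:**
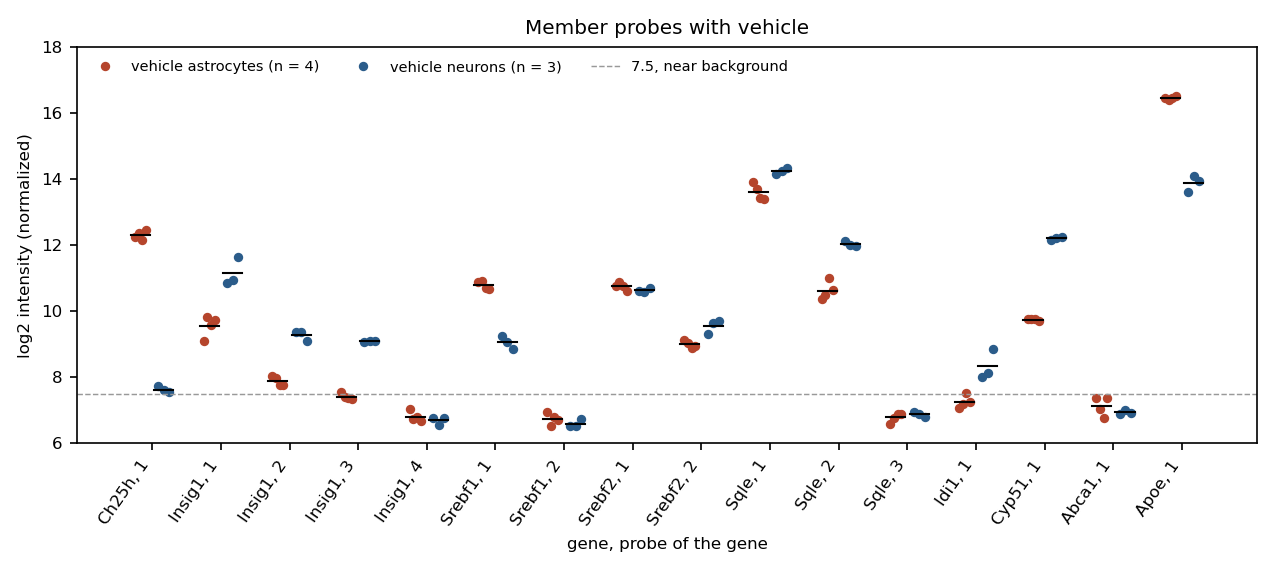
Log2 intensity of the 16 member probes on each vehicle array, astrocytes (n = 4) left of neurons (n = 3) within each probe, with group means as lines and the 7.5 level near background dashed. Ch25h (means 12.30 and 7.62) and Cyp51 (9.75 and 12.21) show the members' largest differences upward and downward.

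The other genes of sterol metabolism were read from 6 lists covering synthesis, sensing and uptake, liver X receptor and efflux, oxysterols, transport and esters, and fatty acid targets of SREBP1. They hold 84 measured genes, members included. With dexamethasone in astrocytes 2 rose (2.38%) and 5 fell (5.95%), beside 2.56% and 2.41% of all 21907 genes, each read by its brightest probe as the list genes are. The median was -0.03 over the lists and -0.01 over all probes. Among the oxysterol genes (13 of 13 measured), 2 fell and none rose. The other one beside Ch25h was Gpr183, the receptor for an oxysterol made from the product of Ch25h. Gpr183 had 8.98, 8.99, 8.53 and 8.84 in dexamethasone astrocytes, against 10.08, 10.16, 9.86 and 9.97 in vehicle astrocytes, without overlap (-1.18 ± 0.12, adjusted p = 6.07e-11). Its dexamethasone effect also differed between cell types (-1.13 ± 0.18, adjusted p = 2.25e-05), but in neurons it read between 7.01 and 7.94, around background, where a fall could not be measured.

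The synthesis list (17 of 22 measured) had 1 rise and no fall with dexamethasone in astrocytes. The gene was Hsd17b7, a sterol 3-ketoreductase, at 12.15, 12.20, 11.82 and 11.87 with dexamethasone, against 11.71, 11.75, 11.43 and 11.39 with vehicle (0.44 ± 0.09, adjusted p = 0.000953). The transport and ester list (12 of 12 measured) had 2 falls, Gramd1b, which moves plasma membrane cholesterol inward (-0.88 ± 0.09, adjusted p = 1.13e-10), and Lipa, the lysosomal acid lipase (-0.59 ± 0.10, adjusted p = 4.91e-05, with a second probe at -0.44 that did not pass). Among the SREBP1 fatty acid targets (13 of 14 measured) Lpin1, a phosphatidate phosphatase, rose (1.19 ± 0.12, adjusted p = 1.04e-10) and Elovl6, a fatty acid elongase, fell (-0.82 ± 0.11, adjusted p = 1.5e-07). The sensing and uptake list (16 of 20 measured) and the liver X receptor and efflux list (13 of 15 measured) had no gene past the limma threshold (4 and 3 at an unadjusted p under 0.05). With the replicate block 11 of the 84 genes were called, Insig1, Nsdhl, Hsd3b7 and Lrp8 in addition, while the share called over all genes was 7.36% with the block and 4.97% without it. With the methods' t-test 2 were called, Ch25h and Lpin1. Without the replicate block, neither aldosterone, progesterone, dihydrotestosterone nor estradiol gave a limma call among the 84 genes in astrocytes. At an unadjusted p under 0.05 aldosterone gave 16 (19.0%, beside 11.3% of all genes), progesterone 9 (10.7%, beside 7.98%), dihydrotestosterone 7 (8.33%, beside 7.23%) and estradiol 4 (4.76%, beside 6.59%). No steroid gave a call in neurons. At an unadjusted p under 0.05 dihydrotestosterone gave 9 there (10.7%, beside 2.10% of all genes) and the others 0 to 2 (beside 2.11% to 3.15%). The methods' t-test called none in these comparisons.

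With vehicle, 35 of the 84 list genes were higher (41.7%) and 26 lower (31.0%) in astrocytes than in neurons, beside 21.9% and 19.4% of all genes, against which the counts of the single lists are also to be read. The oligodendrocyte lineage markers had a median of -1.19 in this comparison, and most neuronal markers were lower in astrocytes too. In the synthesis list 2 genes were higher in astrocytes and 13 lower, with a median of -1.09 beside 0.00 over all probes. The median over all probes includes those near background, while each list gene is read by its brightest probe, so the 2 medians are unlike. The largest differences were in Mvd (mevalonate decarboxylase, -3.03 ± 0.11), Fdps (farnesyl diphosphate synthase, -2.82 ± 0.08), Cyp51, Nsdhl (-2.17 ± 0.11) and Dhcr7 (-1.97 ± 0.11), both enzymes of the last steps, and Tm7sf2 (a sterol reductase, -1.48 ± 0.16). Ebp (1.06 ± 0.10) and Lbr (0.51 ± 0.11) were the enzymes of the opposite direction. In the liver X receptor and efflux list 9 were higher and 2 lower, with a median of 1.10. Pltp, a phospholipid transfer protein (4.07 ± 0.16), Apoc1, an apolipoprotein (3.39 ± 0.18), Apoe, and Nr1h3, which encodes liver X receptor alpha (2.35 ± 0.12, with 6.96 in vehicle neurons), were among the higher, and Abcg4, a neuronal sterol exporter (-1.94 ± 0.13), among the lower. In the oxysterol list 8 were higher and 3 lower, with a median of 0.87. Beside Ch25h the higher ones included Gpr183 (2.79 ± 0.13), Hsd3b7 (2.26 ± 0.12) and Cyp27a1, a mitochondrial sterol hydroxylase (2.08 ± 0.14). Gpr183 (7.22) and Cyp27a1 (6.74), like Nr1h3, were near background in vehicle neurons, so these differences may be understated. Cyp46a1, the cholesterol hydroxylase typical of neurons, was lower in astrocytes (-1.18 ± 0.13). The transport list had 8 higher and 1 lower, led by Stard5 (3.99 ± 0.10) and Lipa (2.78 ± 0.11), and the sensing list 6 higher and 3 lower, led by Erlin2 (2.16 ± 0.09) upward and Vldlr, a receptor for Apoe particles (-2.60 ± 0.13), downward. The fatty acid list had 2 higher and 4 lower, Pnpla3 among the lower (-3.26 ± 0.13), with 7.26 in vehicle astrocytes, near background.

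The dexamethasone result for Ch25h was set beside markers of the other cells in the astrocyte cultures. The 12 microglial markers averaged 12.04 to 12.16 on the dexamethasone arrays, against 12.14 to 12.21 on the vehicle arrays, and their median log2 fold change was 0.00. Over all genes 2.56% were called higher with dexamethasone and 2.41% lower, and the counts that follow are to be read beside these shares. Of the 12 microglial markers, 1 was higher with dexamethasone (C1qb, a complement subunit, 0.59 ± 0.14) and 2 were lower (Cx3cr1, the fractalkine receptor, -1.04 ± 0.14, and P2ry12, a purinergic receptor, -0.58 ± 0.12). The other 9 did not pass, at -0.36 for Aif1, 0.38 for C1qa, 0.17 for Cd68, 0.11 for C1qc and between -0.04 and 0.01 for Csf1r, Itgam, Tmem119, Trem2 and Tyrobp, with Itgam just above background (7.52 with dexamethasone and 7.56 with vehicle). Of 18 interferon-responsive genes 2 were lower with dexamethasone (Cxcl10, a chemokine, -2.09 ± 0.13, and Irf1, a transcription factor, -0.51 ± 0.10), and the mean of the list was 9.93 to 10.31 on the dexamethasone arrays, against 10.33 to 10.40 on the vehicle arrays. The 8 genes known to rise with glucocorticoids averaged 13.13 to 13.21 with dexamethasone, against 10.45 to 10.72 with vehicle, and 7 of them were called higher. None of the fibroblast and mural, endothelial or oligodendrocyte lineage markers was called with dexamethasone in astrocytes. The part of Cx3cr1, P2ry12 or the interferon-responsive genes in the Ch25h result was not tested.

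**Figure D5:**
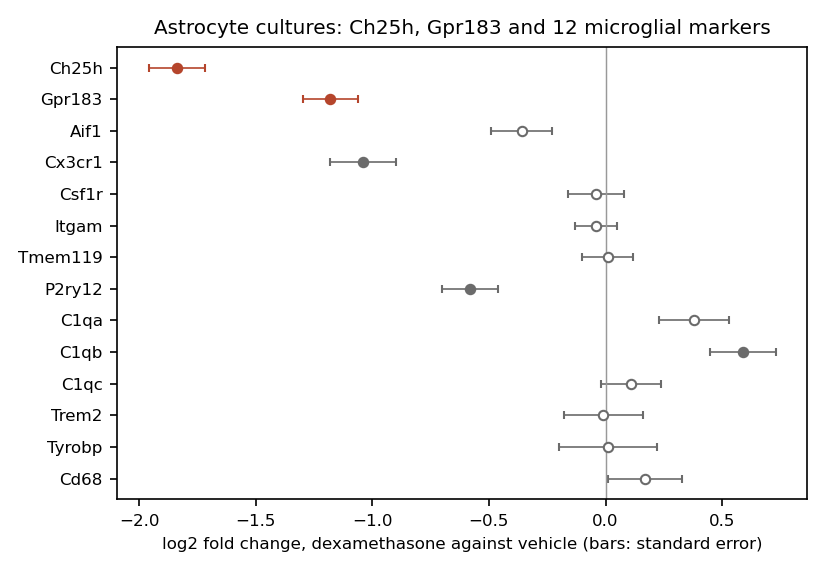
Log2 fold change of dexamethasone against vehicle in astrocyte cultures for Ch25h, Gpr183 (red) and 12 microglial markers (grey), with the standard error as bars and a filled point where the FDR was under 0.01. Ch25h (-1.84) and Gpr183 (-1.18) lie below each of the 12 markers, of which Cx3cr1 (-1.04) is the lowest.

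The genes most like Ch25h were found by the Pearson correlation of their probes with that of Ch25h, among genes whose group means spanned at least 1 log2 unit. Over the 24 astrocyte arrays (237 candidates) these were Evi2a (0.971), a membrane protein, Egr2 (0.966), an immediate early transcription factor, Hcar2 (0.962), the niacin receptor, Lhfpl2 (0.959) and Gpr183 (0.959). Over the 12 group means (6013 candidates) Gpr183, Pik3ap1, a signalling adaptor, Gm5086, Lpar4, a lysophosphatidic acid receptor, and Slc37a1, a sugar phosphate transporter, each had a correlation of 0.999. These points share the dexamethasone astrocytes as the low group and, over group means, the gap between cell types, so the correlations are descriptions. Gpr183 was the 1 gene named by both measures.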

How the data were processed

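Total RNA of 48 cultures was hybridized to Illumina MouseWG-6 v2 arrays. The values are the log2 intensities deposited by the authors, whose methods name BeadStudio, background subtraction, quantile normalization and log2 transformation; which steps apply to the deposited values is not stated. A further table of log2 values without normalization between arrays served only to check identity, since 1 of 48 of its columns lay closest to the array of its own identifier. Matched by value, the columns fell on 8 chips, each with 1 array of every treatment for 1 cell type and 1 replicate number. Depth here means signal over background, and the number of arrays limits precision.

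Probes were named through the platform annotation with current RefSeq symbols (35725 of 46174 with a symbol, 936 updated). Of a gene's probes, the first is the one with the highest mean, and it stands for the gene in lists. With limma 3.58.1 in R 4.3.3, 12 group means were fitted to 46 arrays (34 residual and 11.4 prior degrees of freedom), with Benjamini-Hochberg adjustment over all probes within each comparison and FDR 0.01. The pairs of 200 nM steroids were adjusted together. The methods call the arrays of a group biological replicates and do not say whether they came from separate animals, so p-values measure the spread between these arrays. Same-numbered arrays deviated together in both cell types (correlations 0.115 to 0.325 over 60 pairs in astrocytes and 0.13 to 0.564 over 51 pairs in neurons), so the numbers pair the arrays. The main fit leaves this pairing out, and the replicate block takes it in. In astrocytes the block called 2507 rather than 1638 probes with dexamethasone and 533 rather than 265 with aldosterone. The fit was tested on simulated data, but the outcome is not given here, so no statement about the p-values rests on it. Figures and tables were made with Python 3.11.15, pandas 2.3.3 and matplotlib 3.10.9.

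The members, the lists and the rule for names were chosen with earlier results of these data known. All member probes are reported, list genes past the threshold are named up to 6 each way, and the 5 genes most like Ch25h are named by each of 2 measures. Alternatives were all 48 arrays, a replicate block, a block for the chip named in the labels, a filter on dim probes, 2 further scalings, separate fits per cell type, the methods' t-test and leaving out each array. The label identifiers matched by value for 1 of 48 arrays, so that chip block could not test the effect of the chip. Some genes of the lists are not reported here.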

Additional observations from a re-analysis of the deposited data

Results flagged for a closer look

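The dexamethasone effect on Ch25h differed between cell types, by -1.69 on the log2 scale in astrocytes relative to neurons, in the test of the difference itself. Ch25h averaged 7.62 in vehicle neurons, close to background, so a fall there could not be measured in full. The test therefore cannot tell a smaller response of neurons from this limit. In 8 of the 160 groups of 4 arrays, 1 array lay far from the other 3, and chance alone would give about 8. The Ch25h value of dihydrotestosterone astrocytes 4 was 12.77, against 12.35 to 12.39 on the others. On dexamethasone astrocytes 1 the second Insig1 probe read 8.41 and the fourth 6.58, and on estradiol astrocytes 2 the fourth read 6.61. Srebf2 read 11.01 with its first probe on dihydrotestosterone neurons 2, the array with the highest microglial marker level among neurons, and 8.76 with its second probe on dihydrotestosterone astrocytes 2. Progesterone astrocytes 3 was low in both Sqle (13.35, first probe) and Idi1 (7.07).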

How the results depend on the processing

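The fall of Ch25h with dexamethasone in astrocytes and its difference from neurons kept their call under every alternative run. The replicate block raised the count of member probes called with dexamethasone in astrocytes to 2, against 1 without it, through Insig1, and changed no other member call. Over all probes the share called in that comparison was 5.43% with the block and 3.55% without it. The methods' t-test lowered the count between vehicle astrocytes and neurons to 7, against 11. Insig1 (first probe, -1.59, adjusted p = 0.0101), Srebf2 (second probe, -0.55, 0.0207), Sqle (first probe, -0.62, 0.033) and Idi1 (-1.07, 0.0265) lost the call there. Among the 84 list genes, where the alternatives were added after seeing the data, there were 11 calls with dexamethasone in astrocytes under the replicate block and 2 under the methods' t-test, against 7, and 1 call with aldosterone under the block, against 0. The aldosterone call was Nsdhl (0.42 ± 0.10, adjusted p = 0.00895). Leaving out single arrays gave 6 to 10 calls with dexamethasone and 0 to 1 with aldosterone, the 1 being Nsdhl without vehicle astrocytes 3. For these counts the cause was not tested. Named single values stayed on their side in 187 of 191 refits. Signals near or just above background (Abca1, Idi1 in astrocytes, Ch25h in neurons, and the dimmest probes of Insig1, Srebf1 and Sqle) and near the maximum (Apoe in astrocytes) limit what these arrays can show.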
